A study of Mus musculus with 16 samples.

Results

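The SOCS family holds 8 cytokine-inducible or related adaptor proteins, Socs1 to Socs7 and Cish, each with an SH2 domain and a C-terminal SOCS box. All genes of that name in the deposited table were taken, which gave 8 of its 41411 genes. RNA was measured in whole esophagus of C57BL/6 mice in an oxazolone model of eosinophilic esophagitis (EoE), an allergic disease of the esophageal lining. The 4 groups were Il13ra1-/- mice (KO) given OXA, an oxazolone hapten, KO mice given vehicle, wild-type (WT) mice given OXA and WT mice given vehicle, with 4 libraries each. Il13ra1 and Il4ra together make up the receptor through which IL-13 signals. The sources used here give neither ages nor the cells in which Il13ra1 was deleted. Nothing in the labels says that libraries of a group came from separate mice, so p-values measure the spread between libraries, which may be technical.

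The 8 genes lie on 7 chromosomes in GRCm38. Their table intervals are chr16:10782240-10785536 for Socs1, chr10:95385362-95417180 for Socs2, chr11:117966079-117970047 for Socs3 and chr18:88665224-88927481 for Socs6, all on the minus strand. On the plus strand are Socs4 at chr14:47276931-47296102, Socs5 at chr17:87107679-87137583, Socs7 at chr11:97362551-97398542 and Cish at chr9:107296026-107302784. For 7 of 8 the interval equals that of GENCODE M21, and for Socs5 GENCODE M21 ends the gene later, at 87137839. CEL-Seq reads the 3' ends of transcripts, so a count for Socs5 could depend on where its last exon was taken to end. The predicted gene Gm17041 lies antisense within Cish, and its level was at most 2.75 in any library.

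Cytokine receptors without enzymatic activity of their own signal through JAK kinases, which phosphorylate the receptor and then STAT transcription factors. Several SOCS genes are targets of the STATs their products restrain, which closes a negative feedback loop. Socs1 and Socs3 block JAK catalytic activity with a kinase inhibitory region. The SOCS box binds elongins B and C and, with cullin 5, forms an E3 ubiquitin ligase for the proteins held by the SH2 domain. Socs1 is best known for restraining interferon-gamma and IL-4 signals, Socs3 for signals through gp130, and Cish and Socs2 for STAT5-coupled receptors.

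The Socs1 promoter is shown because Socs1 gave the largest fold change of the family and because its 250 bases upstream of the RefSeq start (GRCm38.p6, chr16:10785537-10785786, minus strand) lie in no exon of its own in GENCODE M21. Capitals mark the run covered by 2 overlapping matches of GAAA, any 2 bases, GAAA, the core of the interferon-stimulated response element.
Socs1: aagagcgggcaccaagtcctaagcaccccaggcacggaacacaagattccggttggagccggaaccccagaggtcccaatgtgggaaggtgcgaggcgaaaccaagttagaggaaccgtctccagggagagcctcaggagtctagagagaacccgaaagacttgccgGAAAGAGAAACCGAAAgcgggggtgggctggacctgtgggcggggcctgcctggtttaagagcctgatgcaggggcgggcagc
The matches, GAAAGAGAAA at -83 to -74 and GAAACCGAAA at -77 to -68, share 4 bases, counted from the base before the start as -1. Of 32817 windows of the same length, 2.97% held this core on either strand and 58 held it more than once (0.177%). RefSeq upstream windows matched 4 of the 8 members. TTCNNNGAA, the core bound by several STAT dimers, was in the Socs3 window once (TTCTTAGAA, -154 to -146), against 7.01% of all windows. TTC, any 4 bases, GAA, the spacing associated with Stat6, was in none of the 4 windows, against 5.85% of all. The Cish and Socs4 windows held none of the 3 motifs. All 250 bases of the Cish window and 77 of those of the Socs3 window lie in exons of the same gene in GENCODE M21, which starts some of its transcripts further upstream. A match describes letters in the window and does not show binding.

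Depth differed between the groups, at 8.82 to 15.2 M recovered reads per library in KO OXA, 7.91 to 16.5 M in KO vehicle, 20.2 to 27.3 M in WT OXA and 5.61 to 9.55 M in WT vehicle. The lowest read count behind any value of the family was 31, for Socs1 in a WT vehicle library. All 5 squamous epithelial markers (Krt4, Krt13, Krt5, Krt14 and Krt15) were measured, and their summed level was at least 435014 in every library. Il13ra1 stood at 44.0, 174, 68.1 and 110.3 in KO OXA, 31.2 to 64.7 in KO vehicle, 584 to 874 in WT OXA and 134 to 226 in WT vehicle. One KO OXA library thus lay inside the WT vehicle range. The sources used here do not name the deleted exons, so a 3' tag is a limited check of the genotype. The eosinophil peroxidase gene Epx, the common gamma chain gene Il2rg, Irf8 and Itgam were listed at 0 in every library. The leukocyte gene Ptprc was at least 71.3 and the macrophage marker Adgre1 at least 59.1 in every library. The 0 values of Il2rg, Irf8 and Itgam therefore do not show that these genes were silent, and their cause was not tested. Epx is 1 of 5 eosinophil markers, none of which had enough signal to be tested. In OXA libraries the 5 summed to 1.24 to 10.7 in KO and 8.23 to 15.1 in WT. In vehicle libraries they summed to 0.76 to 6.56 in KO and 0 to 2.23 in WT.

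**Figure D1:**
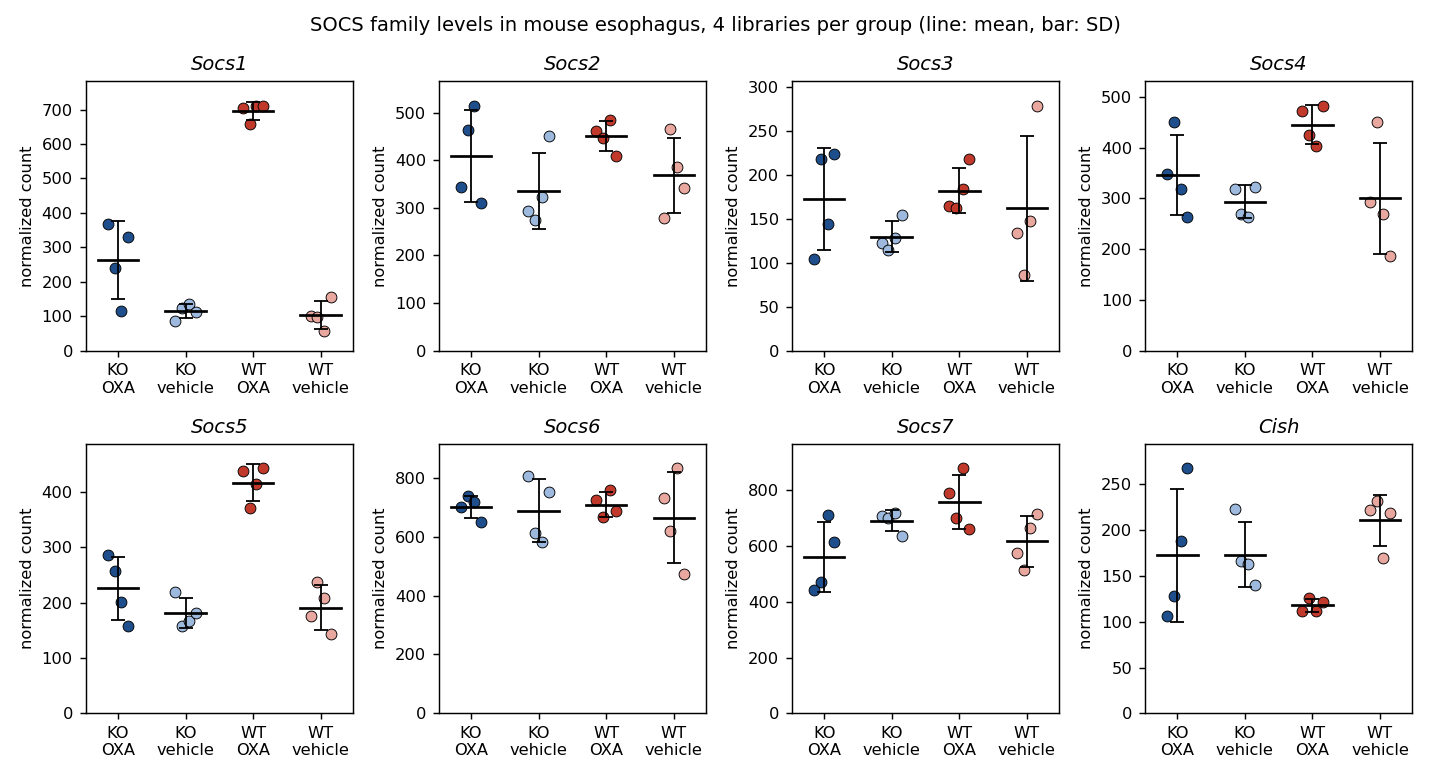
Level of each SOCS gene (normalized count, linear axis from 0) in KO OXA, KO vehicle, WT OXA and WT vehicle libraries; points are libraries, lines means and bars SD. Socs1 and Socs5 in the 4 WT OXA libraries lie above every other library, and Cish in WT OXA lies below every WT vehicle library.

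In WT mice, OXA was accompanied by higher Socs1, Socs5 and Socs4 and by lower Cish. These were 4 of the 8 members, against 34.0% of all 16748 tested genes called in either direction. By direction, 3 members were higher (18.0% of all genes) and 1 was lower (16%). The median log2 fold change of the 8 was 0.31, against 0.10 over all tested genes. Levels are normalized counts, and differences are log2 fold changes of the level plus 1 with their SE, from limma across all genes with Benjamini-Hochberg adjustment and a threshold of 0.05.

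Socs1, the kinase-blocking inhibitor of interferon and IL-4 receptor signals, had levels of 703, 658, 711 and 712 in WT OXA libraries. In WT vehicle libraries it had 102, 97.3, 56.5 and 156. The groups did not overlap, and the means were 696 ± 25.5 in WT OXA and 103 ± 40.8 in WT vehicle (SD, n = 4 each), a ratio of 6.76. The log2 fold change was 2.83 ± 0.31 (limma adjusted p = 1.23e-06). In bulk tissue, more cells of a type and more RNA per cell cannot be told apart.

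Socs5, an adaptor that acts on the EGF receptor in cultured cells and has been studied as a binder of the IL-4 receptor, was 438, 371, 415 and 443 in WT OXA libraries. The WT vehicle libraries had 176, 238, 208 and 143. Again the groups did not overlap, with a ratio of means of 2.18. Its log2 fold change was 1.14 ± 0.20 (limma adjusted p = 0.000226).

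Socs4, the closest relative of Socs5, had levels of 472, 424, 403 and 483 in WT OXA libraries and 293, 450, 270.0 and 187 in WT vehicle libraries. One WT vehicle library lay within the WT OXA range. The log2 fold change of 0.63 ± 0.21 passed the threshold by little (limma adjusted p = 0.0272). It no longer passed without WT OXA library 1 (adjusted p = 0.0629) or 4 (0.0681), or without WT vehicle library 3 (0.0608) or 4 (0.106), or in a fit to the 2 groups alone (0.0503).

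Cish, a STAT5-induced inhibitor of IL-2 family and T cell receptor signals, had levels of 112, 126, 111 and 121 in WT OXA libraries. It had 222, 232, 170 and 218 in WT vehicle libraries. Every WT OXA library was below every WT vehicle library, with a ratio of means of 0.560. The log2 fold change was -0.82 ± 0.24 (limma adjusted p = 0.0120). When libraries were scaled to equal totals, the median of all genes shifted by 0.31 and Cish stood at -0.51 (adjusted p = 0.148). Relative to the median of all genes, Cish was at -0.92 under both scalings.

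The other 4 members did not pass in WT. Socs3, the inhibitor of gp130 receptors, had levels of 163 to 218 in WT OXA and 86.5 to 279 in WT vehicle, and its difference was 0.29 ± 0.29 (limma adjusted p = 0.478). Socs2, which restrains growth hormone signalling, had 409 to 485 in WT OXA and 280 to 467 in WT vehicle (0.31 ± 0.20, limma adjusted p = 0.233). Socs6 and Socs7 are among the members with long N-terminal regions, and are linked to Kit and to insulin receptor signalling. Socs6 had 666 to 759 in WT OXA and 475 to 832 in WT vehicle (0.12 ± 0.16, limma adjusted p = 0.598). Socs7 had 660 to 879 in WT OXA and 513 to 715 in WT vehicle (0.30 ± 0.16, limma adjusted p = 0.162). With equal library totals Socs2 (0.63, adjusted p = 0.0182), Socs6 (0.44, 0.0410) and Socs7 (0.62, 0.0129) passed, which gave 6 members higher and none lower. All 8 members varied less among WT OXA libraries, with coefficients of variation of 3.66% to 14.2%, than among WT vehicle libraries, which were the shallowest.

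**Figure D2:**
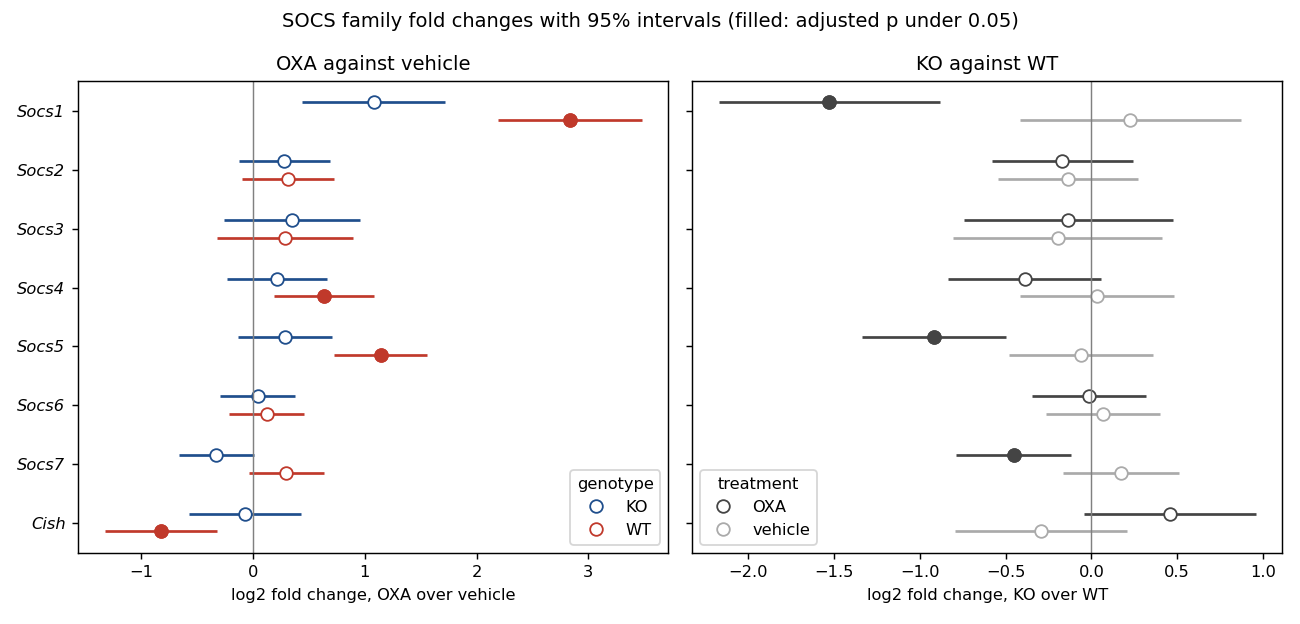
Log2 fold changes of the 8 SOCS genes with 95% intervals, filled where the limma adjusted p was under 0.05; left, OXA over vehicle in KO and in WT; right, KO over WT under OXA and under vehicle. In WT, Socs1, Socs5 and Socs4 are filled to the right of 0 and Cish to the left; in KO none is filled.

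In KO mice no member passed with limma, against 1.90% of all genes (1.81% called higher and 0.0896% lower). Of the 8, 1 had an unadjusted p under 0.05, and edgeR and DESeq2 on the recovered reads each called 1. That member was Socs1. Its levels were 369, 239, 115 and 330.1 in KO OXA libraries and 86.7, 124, 135 and 113 in KO vehicle libraries. Libraries 1, 2 and 4 of KO OXA were above all KO vehicle libraries, and library 3 was among them. The log2 fold change was 1.08 ± 0.31 (limma adjusted p = 0.0856), and 1.19 by edgeR (adjusted p = 0.0280) and by DESeq2 (0.00330). Without KO OXA library 3 it was 1.43 (limma adjusted p = 0.00335).

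KO OXA library 3 was also the lowest of its group in several immune transcripts. Cxcl9, an interferon-induced chemokine, was 647, 655, 105 and 390.0 in KO OXA libraries. The summed level of the 6 T cell markers was 365, 235, 40.9 and 245, and that of the macrophage and dendritic cell markers 21132, 14620, 9933 and 11047. Within the latter sum, Adgre1, Cd68, Cd74 and H2-Ab1 were lowest in library 3. Csf1r (697, 507, 463 and 407), Lyz2 (5908, 3814, 3316 and 2246) and C1qb (5774, 2843, 2478 and 2214) were lowest in library 4. The summed neutrophil markers, at 110, 186, 233 and 173, were highest in library 3. That sum mainly follows Cxcr2 (67.8, 107, 198 and 117). Csf3r (38.5, 73.8, 32.2 and 52.8) and Retnlg (3.67, 4.76, 1.24 and 3.15) were lowest in library 3. In KO OXA, Ly6g was at most 1.24 and Ngp was 0. Ptprc, which encodes CD45 of leukocytes, was 680, 805, 322 and 376. The part of these in the Socs1 values was not tested.

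**Figure D3:**
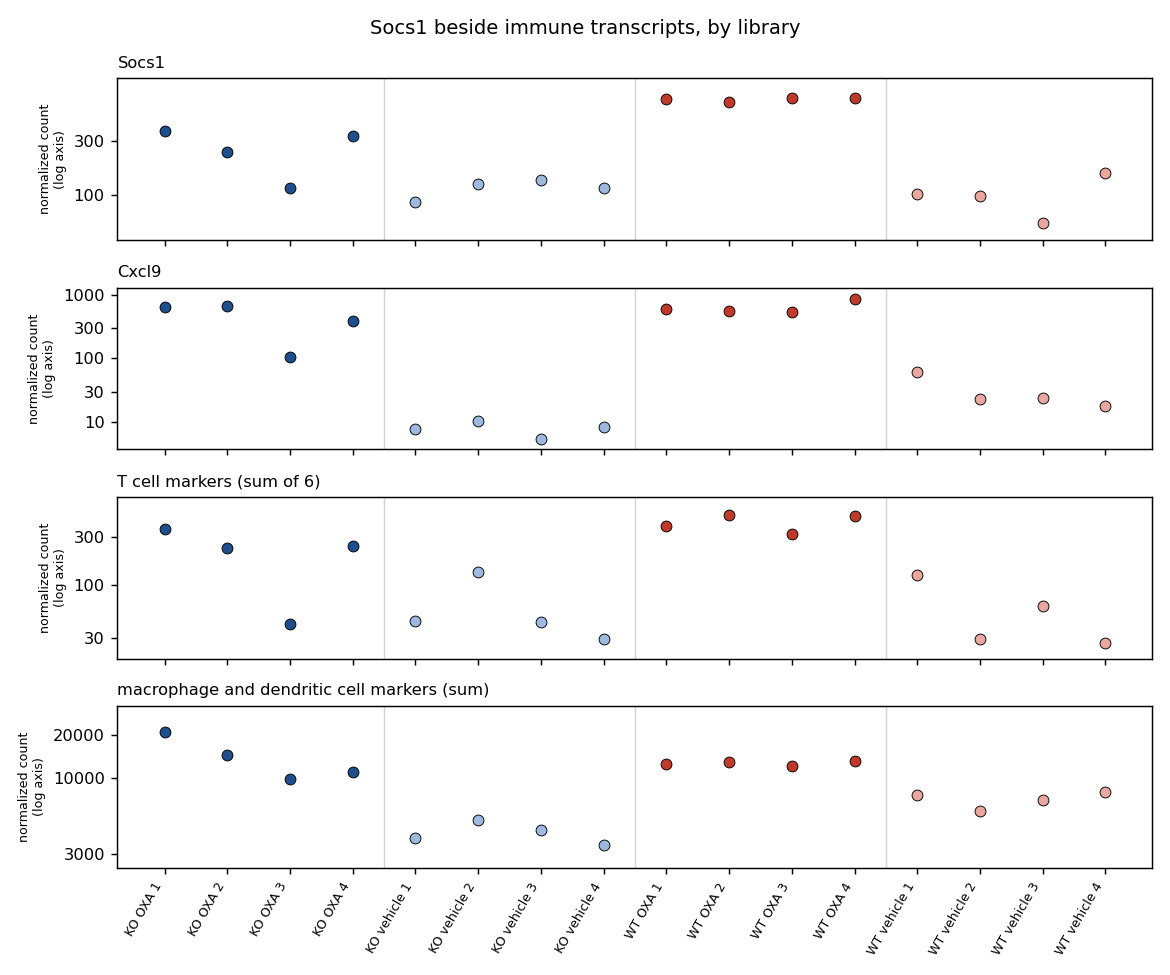
Socs1, Cxcl9, the summed level of 6 T cell markers and the summed level of macrophage and dendritic cell markers in each library (normalized count, log axes), in the order KO OXA, KO vehicle, WT OXA, WT vehicle. KO OXA library 3 is the lowest of its group in Socs1 (115), Cxcl9 (105), the T cell sum (40.9) and the macrophage and dendritic cell sum (9933).

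For the other 7 members the KO differences ran between -0.33 for Socs7 (limma adjusted p = 0.367) and 0.35 for Socs3 (0.637), and none had non-overlapping groups. Socs5 was 286, 257, 202 and 158 in KO OXA libraries and 219, 157, 167 and 182 in KO vehicle libraries, a difference of 0.29 (limma adjusted p = 0.555). Cish ranged widely in KO OXA, at 106, 127, 188 and 267, against 223, 166, 163 and 139.5 in KO vehicle. Its difference was -0.07 with a 95% interval of -0.58 to 0.43.

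The difference between the OXA effects of the 2 genotypes was tested as an interaction, the KO effect minus the WT effect. These effects share no library. It passed for 2 of 8 members, Socs1 and Socs5, both with a smaller effect in KO, against 17.8% of all genes called (10.1% positive and 7.67% negative). For Socs1 the interaction was -1.75 ± 0.43 (limma adjusted p = 0.00867) and it passed without each library in turn. For Socs5 it was -0.86 ± 0.28 (limma adjusted p = 0.0421). The Socs5 call was lost when any 1 of 11 libraries was left out, with adjusted p of 0.0506 to 0.0929; it was kept without WT vehicle 2 or 3, KO OXA 1 or 2, or KO vehicle 2. It was also lost with no filter (0.0602) and without the trend (0.0598). Socs7 stood at -0.63 ± 0.23 (0.0629) and Cish at 0.75 ± 0.34 (0.134). Socs7 passed by DESeq2 (-0.60, adjusted p = 0.0497), with equal library totals (-1.07, 0.00684), with quantile normalization (-0.69, 0.0476), and without WT vehicle 4, KO OXA 3 or KO OXA 4 (0.0293 to 0.0466). Cish passed without KO OXA library 1, at 0.95 (limma adjusted p = 0.0481).

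Under vehicle, no member passed between KO and WT by limma, against 0.0597% of all genes (0.0358% higher and 0.0239% lower). None had an unadjusted p under 0.05, and edgeR and DESeq2 called none. The differences ran from -0.29 for Cish to 0.23 for Socs1, and the ranges of every member overlapped.

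Under OXA, Socs1, Socs5 and Socs7 were lower in KO than in WT, 3 of 8 members against 27.6% of all genes called (14.6% higher and 12.9% lower). The Socs1 levels given above did not overlap, and its mean was 263 ± 113 in KO OXA and 696 ± 25.5 in WT OXA (SD, n = 4 each), a ratio of 0.378. Its log2 fold change was -1.53 ± 0.31 (limma adjusted p = 0.000911). Socs5 did not overlap either, with 226 ± 57.3 in KO OXA and 417 ± 32.9 in WT OXA (SD, n = 4 each). Its log2 fold change was -0.92 ± 0.20 (limma adjusted p = 0.00182). Ordered by mean, WT OXA came first for both genes, followed by KO OXA, whose range overlapped that of the next group.

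Socs7 had levels of 442, 473, 710.5 and 616 in KO OXA and 790, 701.5, 879 and 660 in WT OXA, overlapping groups. The difference was -0.45 ± 0.16 (limma adjusted p = 0.0419). It no longer passed without WT OXA 1, 2 or 3, KO OXA 1 or 2, or KO vehicle 1, 2 or 3 (adjusted p of 0.0519 to 0.139), nor in a fit to the 2 groups alone (0.0793), with no filter (0.0586) or without the trend (0.0664). With equal library totals, where the median of all genes shifted by -0.39, Socs2 (-0.58), Socs4 (-0.80) and Socs6 (-0.43) passed as well. Under that scaling 1273 of all tested genes were called higher and 5111 lower. Relative to the median, Socs2 stood at -0.14, Socs4 at -0.36 and Socs6 at 0.02. With the deposited scaling, Cish stood at 0.46 (limma adjusted p = 0.173) and passed without KO OXA library 1, at 0.66 (0.0449). Socs7 was the only member whose lowest group mean was that of KO OXA, but the ranges of all its neighbouring groups in the order of means overlapped.

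Markers of other cell types also differed between the same groups. Of all genes, 1.90% were called with OXA in KO and 34.0% in WT. The summed T cell markers were 40.9 to 365 in KO OXA, 29.5 to 135 in KO vehicle, 324 to 502 in WT OXA and 26.7 to 127 in WT vehicle. With OXA, none of the 6 T cell markers passed in KO with limma (2 at an unadjusted p under 0.05, edgeR none, DESeq2 1). In WT all 6 rose by limma, and edgeR and DESeq2 each called 5. The macrophage and dendritic cell sum was 9933 to 21132 in KO OXA and 3430 to 5142 in KO vehicle, with 5 of 7 markers higher. In WT OXA it was 12122 to 13200 and in WT vehicle 5968 to 8016, with 4 of 7 higher. The endothelial sum was 296 to 568 in KO OXA, 489 to 717 in KO vehicle, 921 to 1564 in WT OXA and 584 to 633 in WT vehicle, and all 4 endothelial markers rose in WT. The squamous epithelial sum was 1237113 to 2714537 in KO OXA, 1335433 to 1644026 in KO vehicle, 435014 to 718833 in WT OXA and 1264228 to 1866032 in WT vehicle. With OXA in WT, Krt14 rose while Krt15 and Krt13 fell by limma, and edgeR and DESeq2 each called 4 of the 5 markers. Krt4, the largest part of the sum, was 290427 to 498260 in WT OXA and 926888 to 1440621 in WT vehicle. Of 5 skeletal muscle markers, 3 fell in WT. The 3 airway genes summed to 17165 to 32843 in KO OXA, 25496 to 34062 in KO vehicle, 615 to 1041 in WT OXA and 35762 to 54350 in WT vehicle, and both tested ones fell in WT. That sum mainly follows Cyp2f2, which was at least 589 in every library. Scgb1a1 was at most 161 and Scgb3a2 at most 4.76, so the sum is no measure of airway cells. Their part in the SOCS differences was not tested.

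The counts of pathway genes below stand against 1.81% of all genes called higher and 0.0896% lower with OXA in KO, and 18.0% higher and 16% lower in WT. Of the 4 JAK kinases, none passed with OXA in KO by limma (1 at an unadjusted p under 0.05; edgeR and DESeq2 none). In WT, Tyk2 (0.99 ± 0.22, limma adjusted p = 0.00208) and Jak3 (2.27 ± 0.60, 0.00648), the kinase of the common gamma chain, rose, while Jak1 stood at -0.09 and Jak2 at 0.34. Of the STAT genes, Stat2 (1.54 ± 0.31, limma adjusted p = 0.00912) rose in KO. In WT, Stat2 (1.68), Stat3 (0.81) and Stat4 (3.75) rose, and Stat6, the factor of IL-4 and IL-13 receptors, fell by 0.50 (limma adjusted p = 0.0111). The interaction passed for Stat3 (-0.72, limma adjusted p = 0.0227), Stat5b (-0.75, 0.0267) and Stat6 (0.88, 0.00531).

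Of 9 tested Stat6 target genes, 3 rose with OXA in KO (Retnla, Mrc1 and Chil3) and 7 in WT, and the interaction passed for Chil4 (-5.95), Il4ra (-1.93) and Alox15 (-6.36). Of 9 tested Stat3 target genes, none passed in KO with limma (1 at an unadjusted p under 0.05; edgeR and DESeq2 none). In WT, 5 rose, with Timp1 at 3.45, and Cebpd fell by 1.39. Of the 7 Stat5 target genes, none passed in KO with limma (1 at an unadjusted p under 0.05, edgeR none, DESeq2 1). In WT, 4 rose, with Igf1 at 1.71, and Ccnd2 fell by 0.89. The interaction passed for 4 of the 9 Stat3 targets, among them Timp1 (-2.89), Cebpb (-0.97) and Cebpd (1.63), and for 4 of the 7 Stat5 targets, among them Pim2 (-1.57) and Igf1 (-1.47). For each of these 2 lists 3 interactions were negative and 1, Cebpd or Ccnd2, was positive. These counts, and the 3 of 9 for Stat6, stand against 17.8% of all genes.

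**Figure D4:**
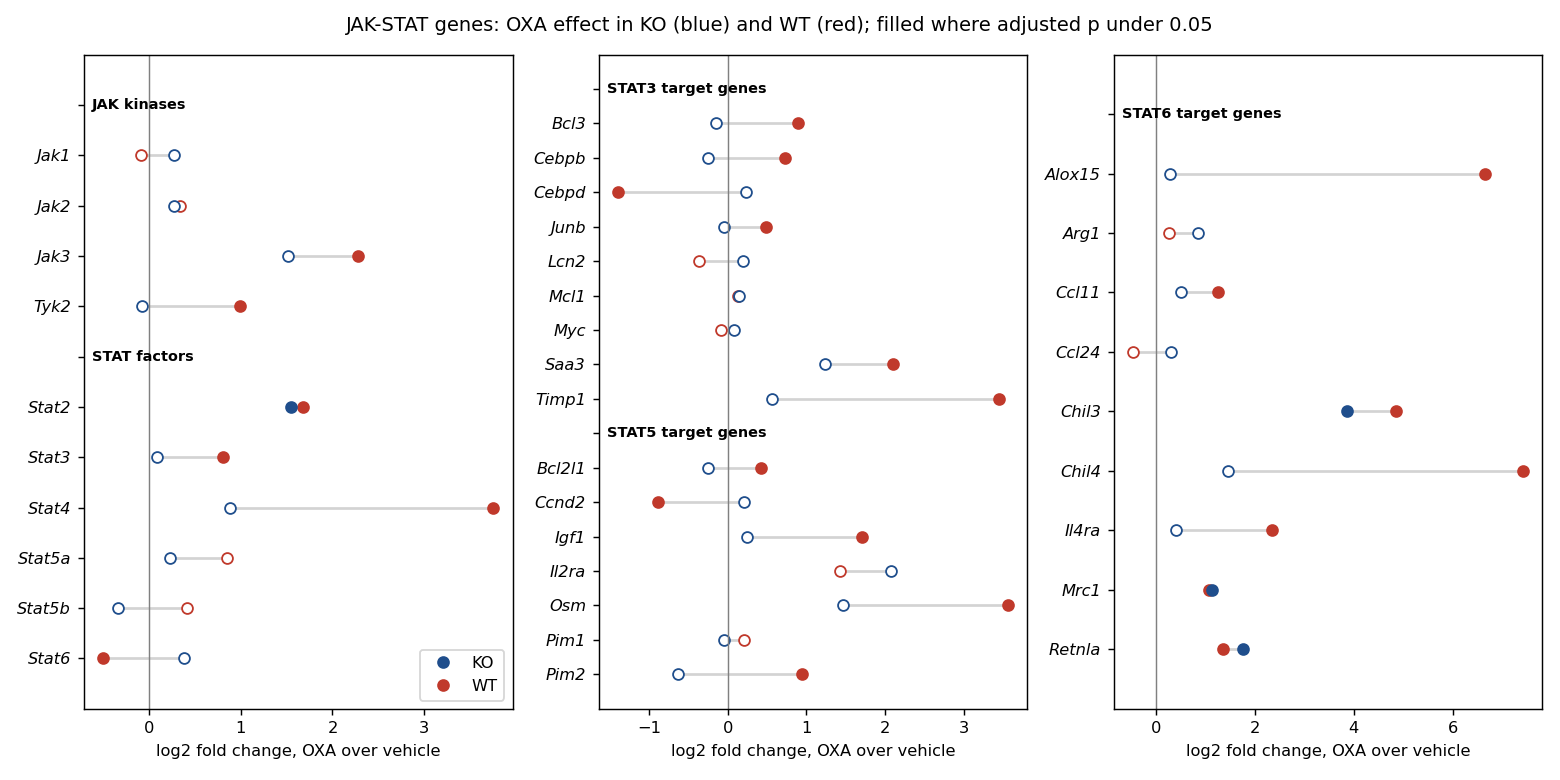
Log2 fold changes with OXA over vehicle in KO (blue) and WT (red) for JAK kinases, STAT factors and target genes of 3 STATs, filled where the limma adjusted p was under 0.05. Chil3, Mrc1 and Retnla among the Stat6 targets are filled in both genotypes, and no Stat3 or Stat5 target is filled in KO.

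Upstream, none of 11 tested JAK-STAT ligands passed with OXA in KO by limma (3 at an unadjusted p under 0.05, edgeR 1, DESeq2 none), and 4 rose in WT. Ifng, the ligand whose signal Socs1 restrains, had levels of 7.33, 4.76, 2.48 and 6.30 in KO OXA and 0 in every KO vehicle library (limma adjusted p = 0.0584). In WT, Ifng was 5.81, 22.1, 5.49 and 12.4 in OXA libraries and 0 in every vehicle library (limma adjusted p = 0.000669). In KO, 1 read was worth 0.788 to 1.83 with OXA and 0.761 to 1.64 with vehicle, so the KO levels rest on few reads. In WT, 1 read was worth 0.363 to 0.540 with OXA and 1.38 to 2.23 with vehicle, so depth differed with treatment. Of 34 tested JAK-coupled receptor chains, none passed in KO with limma (8 at an unadjusted p under 0.05, edgeR 1, DESeq2 3), and in WT 19 rose and 2 fell, against 18.0% and 16% of all genes. Il4ra rose by 2.35 ± 0.24 in WT, with levels of 323 to 375 in WT OXA and 38.6 to 85.4 in WT vehicle.

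Among 11 tested binding partners of SOCS proteins, none passed with OXA in KO by limma (1 each at an unadjusted p under 0.05, by edgeR and by DESeq2), and Il2rb stood at 2.48 (limma adjusted p = 0.115). In WT, Il2rb (4.78), a receptor chain bound by Cish, Csf3r (1.51), a target of Socs3, and Kit (1.42), a partner of Socs6, rose. Of the 5 genes for the ubiquitin ligase that the SOCS box recruits, only Elob, which encodes elongin B, passed in WT, where it fell by 0.82 (limma adjusted p = 0.0110). Of 25 other tested SOCS box genes, Wsb1 rose by 1.44 in WT and 4 fell, among them Asb11 (-1.19) and Asb5 (-0.81), shares near or below the 18.0% and 16% of all genes. Of 13 inhibitors outside the family, Usp18 (1.55) and Ptprc (1.51) rose in KO. In WT, 6 rose, including Ptprc (2.46) and Cbl (0.77), and Pias3 fell by 1.06. The product of Ptprc, CD45, is a phosphatase.

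For the 4 members called in WT, likeness was measured as the mean absolute difference of centred log2 levels over the 16 libraries. Pik3cd (0.27) and Inpp5d (0.33) were nearest to Socs1, followed by Tmem229b, H2-DMb1 and Myo1f, where the median over all genes was 1.15. Pik3cd averaged 69.3 in KO OXA, 44.0 in KO vehicle, 223 in WT OXA and 43.9 in WT vehicle. Nearest to Socs5 were Eif2s3x (0.13), Nucks1, Marcks, Pid1 and Endou, and nearest to Socs4 Ipo11 (0.12), Tlk1, Xrn1, Mdfic and Ep300. Cish was most like Sphk2 (0.17), Mecr, Prr14, Eef2k and Babam1. These are descriptions over libraries that share groups and depth.

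**Figure D5:**
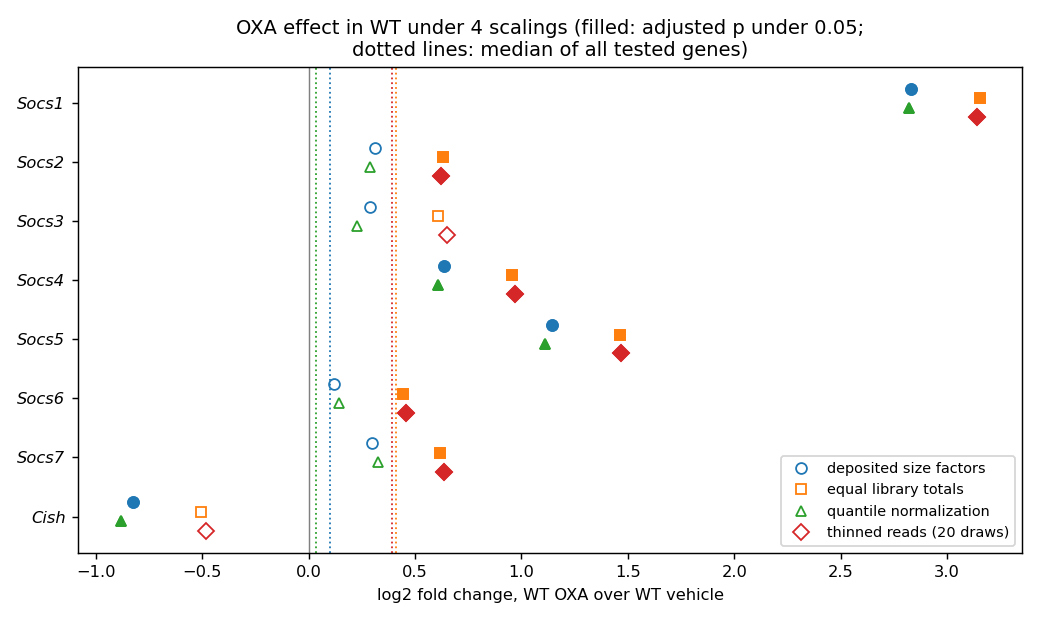
Log2 fold change with OXA over vehicle in WT for the 8 SOCS genes under 4 scalings, filled where the adjusted p was under 0.05. Dotted lines are the medians of all tested genes. Thinned reads were also scaled to equal totals. Socs1, Socs4 and Socs5 are filled under every scaling, Cish under the deposited size factors and quantile normalization, and Socs2, Socs6 and Socs7 only where the median of all genes moves to 0.41 or 0.39.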

How the data were processed

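RNA of 16 mouse esophagus libraries was measured by CEL-Seq on a NextSeq550, per the labels' protocols. Per the submitters' processing notes, the authors used FastQC 0.11.5, Trim Galore, cutadapt 1.10, TopHat2 2.1.0, Bowtie2 2.2.6, GRCm38, HTSeq 0.6.1 and DESeq2 1.28.0. No source used here states the annotation release, the strand setting or whether molecular identifiers were counted. The table the authors deposited holds a signal of 0 or more, made by dividing each gene's count by the size factor of its library. With a tolerance of 0.1 of a read, all values came out as whole reads, which gave the depth.

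Levels were tested as log2(value + 1) by limma 3.58.1 (R 4.3.3), with 4 group means over all libraries, eBayes with a trend, two-sided, and Benjamini-Hochberg adjustment over the 16748 genes that reached a value of 5 in 4 or more libraries. All 8 members passed this filter. The log2(value + 1) scale understates changes of low genes. Adjusted p-values come from it unless edgeR 4.0.16 or DESeq2 1.42.0, run on the recovered reads, is named. The procedure was tested on simulated data. The members and gene lists were chosen with earlier results of these data known. All members are named; of each list the 3 genes of smallest p per comparison may be named, and all JAK and STAT genes. One pathway gene and the list of its targets are not reported here. Epx, Il2rg, Irf8 and Itgam, and the library values of Cxcl9 and Ptprc, were chosen after their values were seen. The same holds for the single levels of Krt4, the airway genes, the neutrophil markers and the macrophage and dendritic cell markers. It also holds for the neutrophil and eosinophil sums. Replicate numbers follow the deposited order and pair nothing. Alternatives are given in the closing section.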

Additional observations from a re-analysis of the deposited data

Results flagged for a closer look

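Socs1 in WT OXA had 1 library, at 658, that lay far from the others relative to the spread of its group, since the remaining 3 stood at 703 to 712. Chance flags about 1 in 20 of such groups, and 32 were examined. The group's coefficient of variation was 3.66%.

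The OXA effect on Socs1 differed between the genotypes by -1.75 (KO effect minus WT effect, limma adjusted p = 0.00867), with all 4 KO OXA libraries below all 4 WT OXA libraries. The OXA effect on Socs5 differed by -0.86 (limma adjusted p = 0.0421), again with all 4 KO OXA libraries below all 4 WT OXA libraries. The summed endothelial markers were 296 to 568 in KO OXA and 921 to 1564 in WT OXA, and the summed T cell markers 40.9 to 365 in KO OXA and 324 to 502 in WT OXA. Their part in these differences was not tested.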

How the results depend on the processing

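No paired analysis was possible because the columns carry no replicate numbers shared between the groups. In KO, edgeR and DESeq2 each called 1 member where limma called none, and the count was 0 to 1 when each library was left out. The interaction called 2 members with the main settings, 1 with no filter and without trend, 4 with equal totals and with thinned reads, and 1 to 3 when libraries were left out. KO against WT under OXA gave 3 with the main settings, 6 with equal totals and 5 with thinned reads. With equal totals, 883 of all tested genes had a positive interaction call and 3459 a negative one. In KO against WT under OXA that scaling gave 1273 genes higher and 5111 lower. Equal totals moved the split of WT calls to 5107 higher and 1496 lower, against 3019 and 2673 with the deposited scaling. Thinning to 5.61 M reads used the median of 20 draws, a number chosen after a single draw was seen to vary. The thinned libraries were also scaled to equal totals, so this setting does not isolate depth. It gave -0.48 for Cish in WT (limma adjusted p = 0.208), against -0.51 (0.148) with equal totals and no thinning.

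Signs turned for small, uncalled values. Socs6 in KO was -0.083 with equal totals and -0.065 with thinning. Cish in KO was 0.0074 by edgeR and 0.0073 by DESeq2. The Socs3 interaction was -0.38 with equal totals and -0.39 with thinning, and Socs4 in KO against WT under vehicle was -0.038 by edgeR and -0.040 by DESeq2. Leaving out libraries turned signs within these ranges: Socs6 in WT -0.030 to 0.24; in KO, Socs6 -0.037 to 0.12 and Cish -0.32 to 0.12; interactions of Socs2 -0.15 to 0.12, Socs3 -0.24 to 0.32 and Socs6 -0.20 to 0.070. Under vehicle the KO against WT ranges were -0.028 to 0.45 for Socs1, -0.45 to 0.11 for Socs3, -0.17 to 0.25 for Socs4, -0.19 to 0.053 for Socs5 and -0.084 to 0.19 for Socs6. Under OXA they were -0.28 to 0.082 for Socs3 and -0.044 to 0.022 for Socs6. Relative to the median of all genes, Socs6 in KO was 0.055 with the deposited scaling, 0.049 with equal totals and 0.063 with thinning. The Socs3 interaction was 0.16, 0.15 and 0.13 in the same order. The cause of the turns was not tested. Read counts as low as 31 limit the precision of WT vehicle values.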
